A study of Mus musculus with 4 samples.

Results

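The 10 genes described here are the BMP ligand gene *Bmp4*, the BMP receptor genes *Bmpr1a* and *Bmpr2*, the signal transducer *Smad1*, the inhibitory Smads *Smad6* and *Smad7*, and the inhibitor of DNA binding genes *Id1*, *Id2*, *Id3* and *Id4*. They were found by symbol among the 32285 genes counted, and all 10 were present. Single cell RNA-sequencing was performed on tdTomato+ cells sorted from hindlimb muscle of C57BL/6J mice aged 3 to 4 months, 14 days after 5 days of tamoxifen. Control mice carried *Pax7*-driven CreERT2, which acts in muscle stem cells (MuSCs), and the Rosa26 tdTomato reporter. α-cdKO mice also carried homozygous floxed alleles of *Ctnna1* and *Ctnna3*, which encode αE- and αT-catenin, so Cre, reporter and tamoxifen were common to both genotypes. Each genotype had 2 samples, each pooled from 2 littermates, and p-values measure the spread between these pools. Each value is a number of unique molecular identifiers (UMIs), which count captured RNA molecules near the 3′ end of transcripts.

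BMP ligands bind heteromeric receptors of type I, such as Bmpr1a, and type II, such as Bmpr2, and the activated receptor phosphorylates Smad1 and its relatives. These Smads enter the nucleus with Smad4 and switch on target genes, among which the Id genes are the best known. Id proteins lack a DNA-binding region and sequester E proteins, the partners of MyoD and myogenin, so in muscle they are known as brakes on differentiation, while Smad6 and Smad7 are targets that feed back to inhibit the pathway.

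The promoters of *Id2*, *Id4*, *Id3* and *Smad6* are shown because these targets carry the letters that Smad proteins are known to bind. Each is the 250 bases before the start of the gene in RefSeq (GRCm38.p6), read 5′ to 3′ on the strand of the gene. Of the 10 genes, 8 were examined in this way, while *Id1* and *Smad7* were not. Letter patterns were searched on both strands, the GC-rich GGCGCC and the palindrome GTCTAGAC, which read the same on both strands, and CAGAC with its reverse GTCTG. Capitals mark the matches, of which that of *Smad6* runs past the window so that only its first 4 letters are shown, and the windows lie at chr12:25096093-25096342 (minus strand), chr13:48260866-48261115 (plus strand), chr4:136143572-136143821 (plus strand) and chr9:64022060-64022309 (minus strand) in the order shown.
Id2: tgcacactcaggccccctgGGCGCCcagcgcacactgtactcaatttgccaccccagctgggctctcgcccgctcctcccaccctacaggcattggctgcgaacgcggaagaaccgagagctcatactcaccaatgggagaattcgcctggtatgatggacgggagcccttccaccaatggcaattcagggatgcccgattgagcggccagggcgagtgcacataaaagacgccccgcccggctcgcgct
Id4: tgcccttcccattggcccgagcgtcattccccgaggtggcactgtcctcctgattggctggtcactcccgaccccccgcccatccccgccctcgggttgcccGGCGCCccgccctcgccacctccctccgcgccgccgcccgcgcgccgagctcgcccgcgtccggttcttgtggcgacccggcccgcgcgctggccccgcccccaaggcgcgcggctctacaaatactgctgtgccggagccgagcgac
Id3: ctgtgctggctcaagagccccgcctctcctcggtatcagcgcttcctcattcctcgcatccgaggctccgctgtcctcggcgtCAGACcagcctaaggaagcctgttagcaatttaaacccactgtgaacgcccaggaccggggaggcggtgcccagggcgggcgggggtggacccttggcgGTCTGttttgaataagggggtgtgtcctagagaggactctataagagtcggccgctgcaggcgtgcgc
Smad6: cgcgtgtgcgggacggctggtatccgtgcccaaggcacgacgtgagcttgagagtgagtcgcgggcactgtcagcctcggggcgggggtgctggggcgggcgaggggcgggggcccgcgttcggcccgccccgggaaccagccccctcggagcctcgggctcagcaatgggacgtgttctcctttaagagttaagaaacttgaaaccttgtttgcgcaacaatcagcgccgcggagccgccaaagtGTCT

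GGCGCC began 231 bases before the start of *Id2* and 148 bases before that of *Id4*, and it was also found 198 bases before *Bmpr1a* and 105 bases before *Bmpr2*. In windows from 250 bases before to 50 bases after the start, 11.9% of 32851 promoters held it. GTCTAGAC stood 4 bases before the start of *Smad6*, and 0.213% of promoters held it. CAGAC or GTCTG stood 167 and 68 bases before the start of *Id3*, letters so short that 49.6% of promoters held them. None of these letters was found in the windows of *Bmp4* and *Smad1*. A match is a run of letters and not a measured site. These starts are those of RefSeq and differ for some genes from the GENCODE coordinates given below. By the GENCODE coordinates the windows of *Id2*, *Id3*, *Bmpr1a* and *Bmpr2* lie within the gene, and that of *Smad1* does so in part.

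The 4 files held between 5853 and 10649 barcodes and between 46099310 and 74921651 UMIs, and 28790 cells were kept, a cell needing 1000 UMIs, 400 genes and less than 15% of its UMIs from mitochondria. Kept cells shared 9 to 26 barcodes between any pair of libraries, at most 0.383% of the smaller one. Clusters were named from marker genes. The members and pathway genes were left out of the genes used to cluster. Immediate-early genes and basic helix-loop-helix (bHLH) factors such as *Myod1* and *Myog* were not left out. There were 4417 quiescent-like cells, 12127 activated-like cells, 640 cycling-like cells, 1363 differentiated-like cells, here called Myog-positive, and 178 endothelial-like cells. The name Myog-positive refers to the cluster, named from a list of differentiation markers with *Myog* among them, and not to a *Myog* UMI in each cell. Another 8320 myogenic cells matched no marker list and were led by chaperone genes (*Dnaja4*, *Clu*, *Dnaja1*, *Hsph1* and *Hspe1*), 268 were mature myocyte-like, and all myogenic cells together were 27135. The cycling class held 30 and 80 cells in controls 1 and 2 and 407 and 123 cells in α-cdKO 1 and 2, so its control values rest on few cells.

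Some properties of the libraries touch the results below. Levels are given as CPM, UMIs scaled to a total of 1000000 in each class and sample. *Ctnna1* stood at 91 and 74.7 CPM in controls 1 and 2 and 79.3 and 75.6 CPM in α-cdKO 1 and 2 in all myogenic cells, but a 3′ count can lie outside the deleted part of a floxed gene and so checks nothing about recombination. *Ctnna3* was at 7 UMIs or fewer in the myogenic cells of each library. In controls 1 and 2 and α-cdKO 2, 80.0% to 82.0% of myogenic cells were Y-linked cells, meaning that they held a UMI of *Ddx3y*, *Eif2s3y*, *Kdm5d* or *Uty*, from the Y chromosome, but none of *Xist*. In α-cdKO 1 only 30.2% of myogenic cells were of this kind, and 52.6% were *Xist* cells, with the reverse pattern. For *Id3*, *Bmp4*, *Smad1* and *Id2*, values between genotypes are therefore also given for Y-linked cells alone, in some classes. The endothelial-like class held summed endothelial markers of 9217 to 11569 CPM, against 5.72 to 7.68 CPM in myogenic cells, with no marker at 0. It also held mural markers, which summed to 2187 to 8183 CPM, and *Rgs5* was among its 10 leading genes.

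Myogenic transcripts were also counted in that class. *Pax7*, the factor that marks MuSCs, stood at 74.8, 28.8, 19.3 and 50.4 CPM in controls 1 and 2 and α-cdKO 1 and 2, against 119, 80.4, 50.6 and 73.8 CPM in the myogenic cells. *Myod1* stood at 160.2, 213, 139.7 and 698 CPM there, against 465, 762, 530.0 and 560.3 CPM in the myogenic cells. α-cdKO 2 stood out with the highest *Myod1* level of the 4 endothelial-like sums, above its own myogenic cells. The part of myogenic RNA in the endothelial-like values was not tested.

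The levels of the members differed between classes in different orders, as the plot of levels by class and sample shows. Quiescent-like cells had a mean *Smad1* level of 22.2 ± 3.7 CPM against 87.2 ± 7.03 CPM in activated-like cells (SD, n = 4 samples) and a mean *Id4* level of 17.7 ± 0.839 CPM against 5.13 ± 0.485 CPM, cycling-like cells had the highest *Id1* level of the myogenic classes, and Myog-positive cells had the lowest *Id3* level. To set classes against each other, the ratio of CPM with 5 CPM added was taken within each sample, and a gene was counted as higher or lower where the ratio was at least 1.5-fold the same way in all 4 samples. The classes were made from the same cells, so these ratios are descriptions without p-values.

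**Figure D1:**
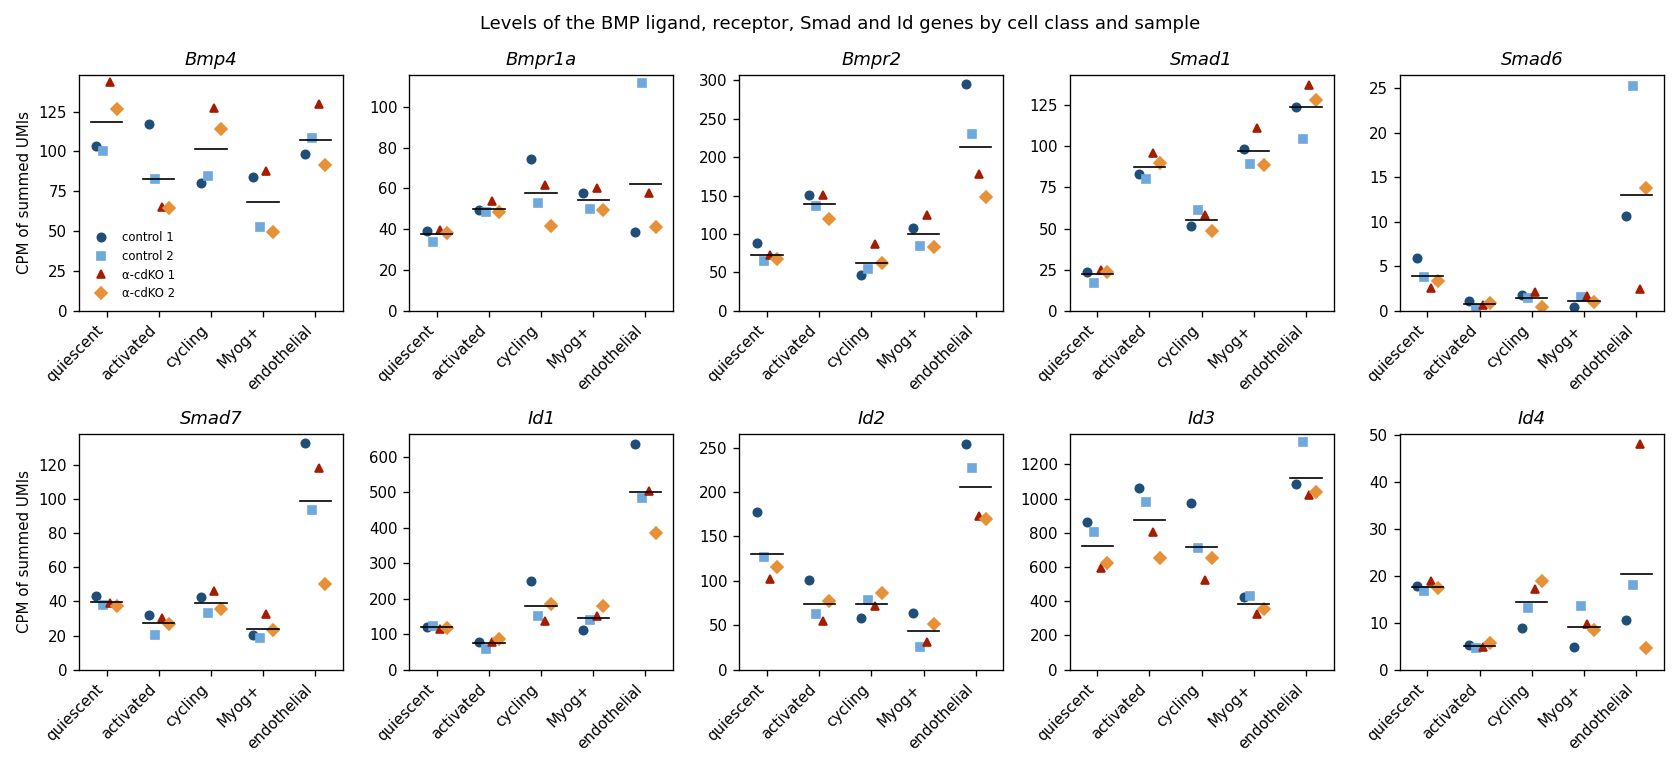
Level of each gene (CPM of summed UMIs, linear axis from 0) in each class, with 1 point per sample and a bar at the mean of the 4 samples. Smad1 sits lowest in quiescent-like cells, Id1 is highest in endothelial-like cells in every sample, and Id3 in the 2 α-cdKO samples lies below both controls in each myogenic class shown.

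Between quiescent-like and activated-like cells, 9 of the 10 genes had a mean of at least 5 CPM and *Smad6* did not. Of the 9, *Id4* was higher in quiescent-like cells and *Bmpr2* and *Smad1* were lower. The rule called 17.2% of 7952 genes higher and 16.2% lower, so 1 and 2 of 9 genes are near the background. The median ratio of all genes was 0.06 on the log2 scale, and the median of the 9 genes was 0.47. With trimmed mean (TMM) scaling of the class sums, the median of all genes shifted to −0.21, the background became 9.43% higher and 26.3% lower, the same 3 genes were called and *Bmpr1a* was also called lower. Of 8 immediate-early genes, 7 (*Fos*, *Fosb*, *Jun*, *Junb*, *Egr1*, *Atf3* and *Nr4a1*) were higher there, with a median of 2.62, and their part in the levels of the members was not tested. Immediate-early genes were not left out of the clustering, so these calls are not independent of how the classes were made.

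*Bmp4* (ENSMUSG00000021835, chromosome 14, 46383520 to 46390669, minus strand, coordinates from GENCODE vM21 on GRCm38) encodes the ligand. In quiescent-like cells it stood at 103 and 100.5 CPM in controls 1 and 2 and 143 and 127 CPM in α-cdKO 1 and 2, and in activated-like cells at 117 and 82.9 CPM in controls 1 and 2 and 65.1 and 64.8 CPM in α-cdKO 1 and 2. Both α-cdKO samples were higher in quiescent-like than in activated-like cells, whereas the ratios of the controls were −0.17 and 0.26. The log2 ratio of quiescent-like to activated-like cells was 0.52 ± 0.58 (SD, n = 4), with a range of −0.17 to 1.08, and the gene was not called. In cycling-like cells *Bmp4* stood at 79.9, 84.9, 127 and 114 CPM, in Myog-positive cells at 83.9, 52.4, 87.7 and 49.6 CPM, and in endothelial-like cells at 98.3, 108, 130.0 and 91.6 CPM, each in the order control 1, control 2, α-cdKO 1, α-cdKO 2. The ranges of neighboring classes overlapped throughout the order of means, from quiescent-like through endothelial-like, cycling-like and activated-like to Myog-positive cells.

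*Bmpr1a* (ENSMUSG00000021796, chromosome 14, 34410734 to 34503341, minus strand) encodes a type I receptor. It stood at 39.3 and 33.8 CPM in controls 1 and 2 and 39.5 and 38.3 CPM in α-cdKO 1 and 2 in quiescent-like cells and at 49.4, 48.3, 53.9 and 48.3 CPM in activated-like cells. Every quiescent-like value lay below every activated-like value, with a log2 ratio of −0.36 ± 0.08 (SD, n = 4) that did not reach 1.5-fold, and with TMM scaling the ratio was −0.70 and passed. In the endothelial-like class its UMIs numbered 18 to 31 per sample, and its level of 38.5 to 112 CPM overlapped that of each of the 4 myogenic states.

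*Bmpr2* (ENSMUSG00000067336, chromosome 1, 59763400 to 59879014, plus strand) encodes the type II receptor. Its level was 88.1, 65, 73.3 and 67 CPM in quiescent-like cells, 151, 136, 151 and 119 CPM in activated-like cells and 46.2, 55, 87.2 and 62.2 CPM in cycling-like cells, in the same order of samples. All 4 activated-like values lay above all values of the other 2 classes. The log2 ratio to activated-like cells was −0.88 ± 0.14 for quiescent-like and −1.12 ± 0.38 for cycling-like cells (SD, n = 4), and both were called lower. In Myog-positive cells it stood between, at 108, 84.3, 124 and 82.6 CPM, with a ratio of −0.47 ± 0.16 that was not called. Endothelial-like cells held 295, 231, 178 and 149 CPM, above myogenic cells in all 4 samples but with 2 ratios under 1.5-fold.

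*Smad1* (ENSMUSG00000031681, chromosome 8, 79338395 to 79399518, minus strand) encodes the transducer that BMP receptors phosphorylate. It had the largest ratio of the 9 genes compared between quiescent-like and activated-like cells, *Smad6* being under the limit of 5 CPM. It stood at 23.7 and 16.7 CPM in controls 1 and 2 and 24.8 and 23.6 CPM in α-cdKO 1 and 2 in quiescent-like cells and at 82.9 and 80.2 CPM in controls 1 and 2 and 95.8 and 89.9 CPM in α-cdKO 1 and 2 in activated-like cells. The groups of values lay far apart, and the log2 ratio was −1.77 ± 0.15 (SD, n = 4), with a range of −1.97 to −1.62. Cycling-like cells held 51.5, 61.2, 58.5 and 48.5 CPM and Myog-positive cells 98.1, 89.4, 111 and 88.5 CPM, so the myogenic order was Myog-positive, activated-like, cycling-like and quiescent-like, where the first 2 overlapped. The ratio of Myog-positive to activated-like cells was 0.14 ± 0.11, and with TMM scaling it turned to −0.31. The cells led by chaperone genes held 70.7, 60.6, 84.3 and 72.9 CPM, so that quiescent-like cells were lower than them too, with a ratio of −1.51 ± 0.10.

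Against those chaperone-led cells, *Id4* was higher and *Smad1* lower in quiescent-like cells, where the rule called 8.42% of 8061 genes higher and 11.1% lower. When cells were instead assigned by markers alone, without clusters, no member was called between quiescent and activated cells, and the *Smad1* ratio was −0.35 ± 0.18, the *Id4* ratio 0.32 ± 0.10 and the *Bmpr2* ratio −0.21 ± 0.12 (SD, n = 4). Each kept its direction in 4 of 4 samples at a smaller size.

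*Smad6* (ENSMUSG00000036867, chromosome 9, 63953076 to 64022059, minus strand) encodes an inhibitor of BMP receptor signaling and had few UMIs. In quiescent-like cells it was at 5.91, 3.75, 2.54 and 3.35 CPM on 31, 24, 19 and 30 UMIs, and in activated-like cells at 1.13, 0.23, 0.634 and 0.922 CPM on 25, 4, 18 and 27 UMIs. All 4 quiescent-like values were above all activated-like values, but both lay near or below 5 CPM, and no ratio was read from them. Endothelial-like cells held 5, 7, 1 and 6 UMIs, and the 95% Poisson interval in control 2 was 10.1 to 52 CPM, so the class level was not precise at this depth.

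*Smad7* (ENSMUSG00000025880, chromosome 18, 75367529 to 75395935, plus strand) encodes the inhibitor shared with the TGF-β branch. It stood at 42.9, 38.1, 39.3 and 37.5 CPM in quiescent-like cells, 31.9, 20.5, 30.2 and 26.6 CPM in activated-like cells and 20.4, 18.5, 32.5 and 23 CPM in Myog-positive cells. The quiescent-like values lay above all activated-like ones, with a log2 ratio of 0.47 ± 0.19 (SD, n = 4) that was not called, while the Myog-positive and activated-like values overlapped. The chaperone-led cells, at 42.6, 36.9, 39.6 and 37 CPM, overlapped with quiescent-like cells, with a ratio of 0.01 ± 0.02.

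*Id1* (ENSMUSG00000042745, chromosome 2, 152736251 to 152737410, plus strand) is the Id gene most widely used as a readout of BMP signaling. It stood at 121 and 123 CPM in controls 1 and 2 and 114 and 119 CPM in α-cdKO 1 and 2 in quiescent-like cells and at 78.7 and 59.3 CPM in controls 1 and 2 and 78.1 and 85.8 CPM in α-cdKO 1 and 2 in activated-like cells. The quiescent-like values lay above all activated-like values, but 1.5-fold was reached in only 2 of 4 samples, and the log2 ratio was 0.64 ± 0.25 (SD, n = 4). In cycling-like cells it stood at 249 and 152 CPM in controls 1 and 2 and 137 and 186 CPM in α-cdKO 1 and 2, from 140 UMIs in control 1 to 850 UMIs in α-cdKO 1. All cycling-like values lay above all activated-like ones, with a ratio of 1.18 ± 0.35 (SD, n = 4).

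Of 9 genes compared between cycling-like and activated-like cells, *Id1* was called higher and *Bmpr2* lower, where the rule called 29.9% of 8477 genes higher and 4.94% lower. The median ratio of all genes was 0.42 and moved to −0.19 with TMM scaling, under which 13.2% were higher and 20.8% lower. With that scaling the *Id1* ratio was 0.46 and no longer called, *Bmpr2* was −1.83, and *Id3* and *Smad1* were called lower, while *Bmp4*, *Bmpr1a*, *Id2* and *Smad7* turned from ratios above 0 to ratios below 0. *Id1* lay above and *Bmpr2* and *Smad1* below activated-like cells under both scalings. In Y-linked cells alone *Bmpr2* was called and *Id1* was not.

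Myog-positive cells held *Id1* at 111, 141, 151 and 179.9 CPM, above activated-like cells in 4 of 4 samples with a log2 ratio of 0.90 ± 0.30 (SD, n = 4), although control 1 did not reach 1.5-fold. *Id1* was thus not lowest in the Myog-positive class, in which *Myog* itself stood at 781, 1562, 777 and 1308 CPM. The endothelial-like class held 637 and 483 CPM in controls 1 and 2 and 503 and 385 CPM in α-cdKO 1 and 2, above every value of the 4 myogenic states. The ratio of endothelial-like to all myogenic cells was 2.37 ± 0.36 (SD, n = 4), with a range of 1.87 to 2.74.

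*Id2* (ENSMUSG00000020644, chromosome 12, 25093799 to 25097140, minus strand) encodes an Id protein that also binds retinoblastoma family proteins. It stood at 178 and 127 CPM in controls 1 and 2 and 102 and 116 CPM in α-cdKO 1 and 2 in quiescent-like cells and at 101 and 62.4 CPM in controls 1 and 2 and 55 and 77.6 CPM in α-cdKO 1 and 2 in activated-like cells. Quiescent-like cells were higher in each sample, with a ratio of 0.79 ± 0.18 (SD, n = 4), and α-cdKO 2 alone missed 1.5-fold, so the gene was not called, and it was called with that sample left out. Myog-positive cells held 63.5, 25.8, 31.6 and 51.6 CPM, with a ratio to activated-like cells of −0.75 ± 0.26, and again α-cdKO 2 alone missed 1.5-fold. Cycling-like cells held 58.6, 77.9, 72 and 86.2 CPM, within the range of activated-like cells. In endothelial-like cells the level was 254, 227, 173 and 169 CPM, with a ratio to myogenic cells of 1.30 ± 0.28 that was called.

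*Id3* (ENSMUSG00000007872, chromosome 4, 136143497 to 136145755, plus strand) encodes another Id protein. It stood at 865 and 802 CPM in controls 1 and 2 and 593 and 621 CPM in α-cdKO 1 and 2 in quiescent-like cells, and at 1064 and 980.4 CPM in controls 1 and 2 and 807 and 652 CPM in α-cdKO 1 and 2 in activated-like cells. Activated-like cells were higher in each of the 4 samples, but the ranges overlapped, and the log2 ratio of quiescent-like to activated-like cells was −0.27 ± 0.15 (SD, n = 4). In Myog-positive cells it stood at 426 and 431 CPM in controls 1 and 2 and 324 and 354 CPM in α-cdKO 1 and 2, below every other class shown. The ratio to activated-like cells was −1.17 ± 0.21 (SD, n = 4), and *Id3* was the 1 gene of 9 called lower, where the rule called 4.59% of 7857 genes lower and 19.0% higher. With TMM scaling these were 14.4% and 9.15%, the *Id3* ratio was −1.64, *Id2* and *Bmpr2* were also called lower, and the median of all genes moved from 0.20 to −0.17.

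*Id4* (ENSMUSG00000021379, chromosome 13, 48261228 to 48266026, plus strand) encodes an Id protein best known from neural development. It stood at 17.7 and 16.9 CPM in controls 1 and 2 and 18.8 and 17.3 CPM in α-cdKO 1 and 2 in quiescent-like cells and at 5.31 and 4.72 CPM in controls 1 and 2 and 4.76 and 5.74 CPM in α-cdKO 1 and 2 in activated-like cells. The classes did not overlap, the spread among samples was small in both, and the log2 ratio was 1.16 ± 0.10 (SD, n = 4). Cycling-like cells held 8.88, 13.2, 17.2 and 18.8 CPM on 5, 19, 107 and 40 UMIs, above activated-like cells in each sample, although control 1 did not reach 1.5-fold and the gene was not called. It was called with control 1 left out. In endothelial-like cells it rested on 5, 5, 20 and 2 UMIs, and α-cdKO 1 at 48.2 CPM (95% Poisson interval 29.4 to 74.4) stood above α-cdKO 2 at 4.58 CPM (0.555 to 16.5).

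**Figure D2:**
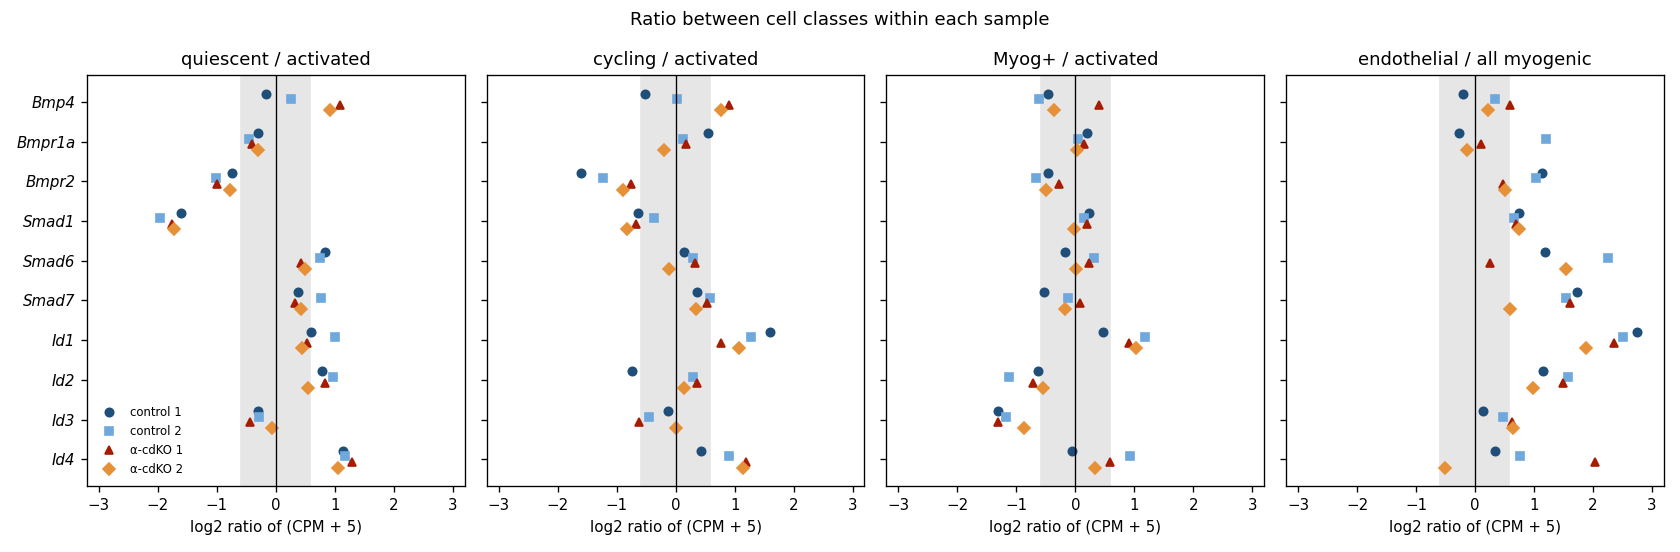
Log2 ratio of CPM with 5 added between 2 classes of the same sample, 1 point per sample, with the gray band marking less than 1.5-fold. Smad1 lies far left in quiescent-like against activated-like cells (−1.97 to −1.62) and Id1 far right in endothelial-like against myogenic cells (1.87 to 2.74), while with TMM scaling Bmp4, Bmpr1a, Id2 and Smad7 change sign in the cycling panel, Bmpr1a and Smad1 in the Myog+ panel, and Bmp4, Bmpr1a and Id3 in the endothelial panel.

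Between endothelial-like and all myogenic cells, all 10 genes had a mean of at least 5 CPM. Of these, 4 were called higher, namely *Id1*, *Id2*, *Smad7* and *Smad1*, and 0 lower, where the rule called 15.3% of 9000 genes higher and 1.02% lower. *Smad7* stood at 132, 93.7, 118 and 50.4 CPM in endothelial-like and 36.2, 28.8, 35.4 and 31.9 CPM in myogenic cells, and its ratio in α-cdKO 2 was 0.59, just past the limit, and the call was lost among cells of at least 2000 UMIs. *Smad1* stood at 124, 104, 137 and 128 CPM in endothelial-like cells, with an even ratio of 0.71 ± 0.04 (SD, n = 4). The median of all genes was 0.25 and moved to −0.25 with TMM scaling, under which 8.93% were higher and 11.4% lower and only *Id1* of the 10 was called, at 1.74. With that scaling *Smad1* was 0.11, and *Id3*, at 0.47 ± 0.24 in CPM, was −0.17. In cells assigned by markers alone, *Id1* and *Id2* were called.

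The other genes of the pathway were counted in the same way, from lists of ligands, receptors, Smads, antagonists, targets and basic helix-loop-helix (bHLH) partners that include the members. Between quiescent-like and activated-like cells, the background for the counts that follow was 17.2% of 7952 genes higher and 16.2% lower. With TMM scaling this background was 9.43% and 26.3%. Of 8 receptors and co-receptors with enough UMIs, 2 were higher (*Acvr2b* and *Rgmb*) and 1 was lower (*Bmpr2*), with a median of 0.50. Of 9 target genes, 3 were higher (*Id4*, *Hey1* and *Atoh8*) and 1 was lower (*Tgif1*), with a median of 0.79. Of 6 Smads, 2 were lower (*Smad1* and *Smad3*) and 0 were higher, with a median of −0.39. Of 11 antagonists and inhibitors, 1 was lower (*Fst*), which encodes the activin and BMP binder follistatin, and none of 3 ligands was called. Of 5 bHLH partners 1 was higher (*Tcf3*) and 1 lower (*Myod1*, at a mean of 102 CPM in quiescent-like and 864 CPM in activated-like cells). *Myod1* is itself a marker used to name activated-like cells, so its call is not an independent result.

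*Rgmb*, a BMP co-receptor, had a mean of 74.1 CPM in quiescent-like and 23.7 CPM in activated-like cells. *Tgif1*, a homeobox repressor that binds Smads, had 91.6 CPM in quiescent-like and 383 CPM in activated-like cells. *Smad4*, the partner shared by the BMP and TGF-β branches, had 45.3 CPM in quiescent-like and 70.6 CPM in activated-like cells and was not called. The ligands beside *Bmp4* with the highest levels in myogenic cells were *Bmp2*, at 26.4 CPM, and *Bmp6*, at 24.0 CPM, as means of the 4 samples.

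In cycling-like against activated-like cells, 3 of 11 antagonists were higher (*Fstl1*, *Twsg1* and *Nbl1*), 2 of 9 targets were higher (*Id1* and *Hey1*) and 1 was lower (*Tgif1*), where 29.9% of all genes were higher and 4.94% lower, so the higher counts were no larger a share than the background. In Myog-positive against activated-like cells, the background was 19.0% of 7857 genes higher and 4.59% lower, and with TMM scaling 9.15% and 14.4%. *Bmpr1b* and *Rgmb* were higher and *Tgfbr3* lower among 8 receptors, and *Bmp6* was the 1 of 3 ligands called lower. *Nbl1* was higher and *Chrdl2* and *Fst* lower among 11 antagonists, and *Atoh8* was higher and *Id3* lower among 9 targets. Among the bHLH partners with which Id proteins interact, directly or through E proteins, *Tcf3* and *Tcf12*, which encode E proteins, and *Myog* were higher in Myog-positive cells and *Myf5* was lower. *Myog* is itself a marker used to name this class, so its call is not an independent result. The other bHLH genes were not left out of the clustering either. In endothelial-like cells 6 of 12 targets were higher (*Id1*, *Id2*, *Smad7*, *Msx1*, *Atoh8* and *Gata2*), with a median of 1.15, as were 2 of 10 receptors, *Acvrl1* and *Eng*, which endothelial cells are known to use for BMP signaling, where 15.3% of all genes were higher. With TMM scaling *Id1* was called and *Id2* and *Smad7* were not, and the other targets were not examined with that scaling.

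The share of cells with a UMI was compared after thinning each cell to 2000 UMIs and leaving out the shallower ones (135 of the quiescent-like, 65 of the activated-like, 16 of the cycling-like, 22 of the Myog-positive and 10 of the endothelial-like cells). An *Id1* UMI was found in 14.2% (13.1 to 15.3) of quiescent-like, 12.2% (11.6 to 12.8) of activated-like, 21% (17.9 to 24.4) of cycling-like and 17.9% (15.9 to 20.1) of Myog-positive cells, with 95% Clopper-Pearson intervals that cover counting error only. Endothelial-like cells stood apart at 49.4% (41.6 to 57.2). As reference classes, immune-like cells had 12.7% (7.44 to 19.8), and mature-muscle barcodes had 1.73% (0.993 to 2.8), so the interval of each of the 4 myogenic states overlapped that of immune-like cells, and that of endothelial-like cells did not. The immune-like class was small and mixed, with fibro-adipogenic markers summed to 4949 to 16217 CPM and glial markers to 793 to 3838 CPM beside immune markers of 12668 to 123832 CPM. The median cell had 7646 UMIs in the immune-like class, 5853 in the quiescent-like class and 7537 in the endothelial-like class. Without thinning, 27.4% of quiescent-like and 60.9% of cycling-like cells had an *Id1* UMI, but the median cycling-like cell had 15863 UMIs.

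An *Id3* UMI was found in 54.9% (54.1 to 55.8) of activated-like, 49.2% (45.2 to 53.2) of cycling-like, 44.2% (42.7 to 45.7) of quiescent-like and 33.8% (31.2 to 36.4) of Myog-positive cells, against 44.4% (35.6 to 53.6) of immune-like cells and 9.85% (8 to 12) of mature-muscle barcodes. Myog-positive cells had the lowest share of the 4 myogenic states, and the quiescent-like and Myog-positive shares were no higher than that of immune-like cells. An *Id4* UMI was found in 3.83% (3.28 to 4.45) of quiescent-like and 0.97% (0.803 to 1.16) of activated-like cells, with immune-like cells at 1.59% (0.193 to 5.62). A *Smad1* UMI was found in 3.41% (2.89 to 4) of quiescent-like and 14.7% (14 to 15.3) of activated-like cells, with immune-like cells at 6.35% (2.78 to 12.1). Unthinned, the *Smad1* shares were 11.1% and 42.1%. The quiescent-like share of *Smad1* lay within the interval of immune-like cells. In quiescent-like cells an *Id1* and an *Id3* UMI were found in the same cell 1.39 to 1.56 times as often as their shares would give if independent, and in activated-like cells 1.13 to 1.25 times, above 1 in 4 of 4 samples in both, as a description of sparse counts.

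The patterns most like those of *Id1*, *Id2* and *Id3* were found by Pearson correlation of log2 CPM with 5 added over 36 class-by-sample sums, among 7032 genes, as a description over points that share libraries. For *Id1* the closest were *Tcf4* (r = 0.89), *Itgb1*, *Actn4*, *Macf1* and *Ptprg*. *Tcf4* encodes an E protein, a class of protein that Id proteins bind. For *Id2* they were *Pgrmc1* (r = 0.89), *Atp2b4*, *Klf4*, *Arhgap29* and *Tmem47*, and for *Id3* they were *Atp2b4* (r = 0.87), *Ier2*, *Zfp131*, *Junb* and *Ccnl1*. *Ier2* and *Junb* are immediate-early genes. The correlation of *Id1* was 0.75 with *Id2* and 0.59 with *Id3*.

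Between genotypes, *Id3* was the 1 of the 10 members whose 2 α-cdKO values lay below both controls in all myogenic cells and in each of the 5 myogenic classes tested. The classes come from the same 4 libraries and all myogenic cells contain them, so their agreement is not independent. The share of all genes with this pattern in every class was not counted. The plot of differences by class shows the fold changes. In the 268 mature myocyte-like cells, which were not tested, the *Id3* values of the genotypes overlapped, at 832, 1254, 1066 and 603 CPM in controls 1 and 2 and α-cdKO 1 and 2. In all myogenic cells it stood at 993 and 956 CPM in controls 1 and 2 and 662 and 665 CPM in α-cdKO 1 and 2. The log2 fold change was −0.56 (SE 0.11, adjusted p = 0.29, edgeR quasi-likelihood fit, Benjamini-Hochberg over 14622 genes), so it did not pass the test. No member passed in any class. Across the table, the test called 26 genes (0.178%) in all myogenic cells, 17 (0.147%) in quiescent-like, 19 (0.155%) in activated-like, 5 (0.056%) in cycling-like, 1 (0.0102%) in Myog-positive and 23 (0.189%) in chaperone-led cells. At an unadjusted p under 0.05, edgeR gave 1 of 10 members in all myogenic cells, 3 of 10 in quiescent-like, 2 of 10 in activated-like, 3 of 9 in cycling-like, 0 of 9 in Myog-positive and 2 of 10 in chaperone-led cells. Over all genes the same threshold held 1023 of 14622, 957 of 11559, 816 of 12261, 739 of 8930, 330 of 9820 and 997 of 12146, in that order. DESeq2 called *Id3* in all myogenic cells (adjusted p = 0.0105) and no other member in all myogenic, quiescent-like, activated-like, cycling-like or Myog-positive cells, where it was run, and for *Id3* in all myogenic cells the adjusted p under the alternatives ranged from 0.0105 to 0.9998.

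**Figure D3:**
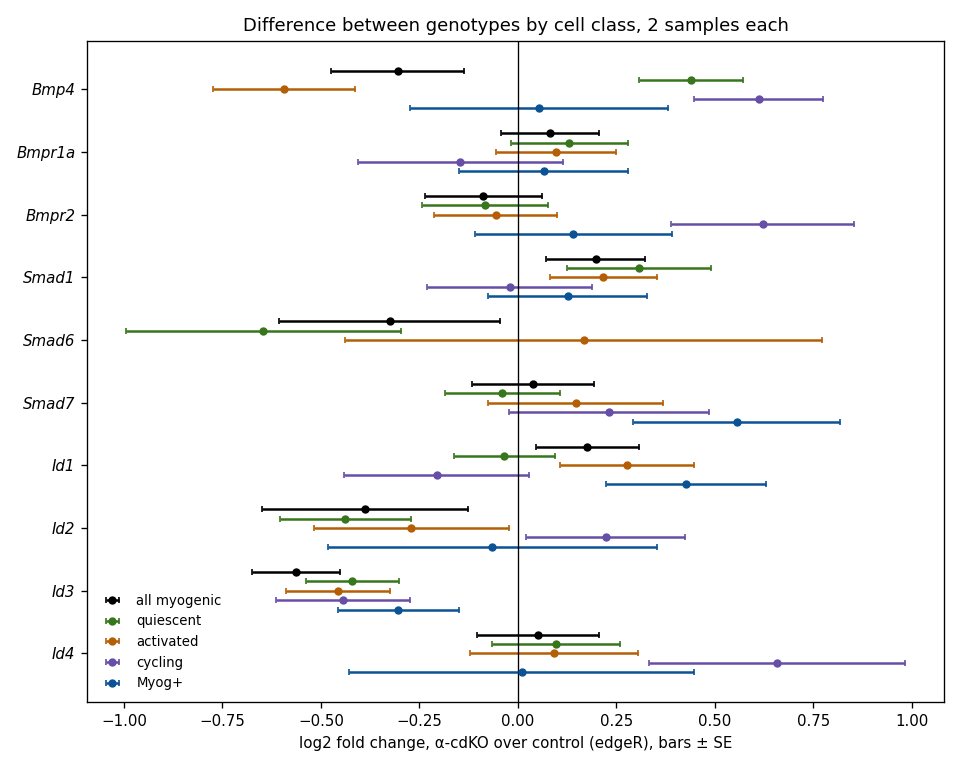
Log2 fold change of α-cdKO over control from edgeR for each gene and class, with bars of 1 standard error, from 2 samples per genotype. Id3 lies left of 0 in all 5 rows (−0.56 to −0.30), Bmp4 lies right of 0 in quiescent-like and cycling-like cells (0.44 and 0.61) and left of 0 in activated-like cells (−0.59), and none of the 10 genes passes an adjusted p of 0.05. In cells assigned by markers alone, Id3 turned to 0.36 in Myog-positive and Bmp4 to −0.092 in quiescent cells.

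*Id3* in the separate classes had the values given above, which did not overlap between genotypes in quiescent-like, activated-like, cycling-like or Myog-positive cells. In cycling-like cells they were 977, 713, 523 and 654 CPM, and in chaperone-led cells 1019, 1123, 648 and 753 CPM, in the order of controls 1 and 2 and α-cdKO 1 and 2. The fold change was −0.42 (SE 0.12, adjusted p = 0.362) in quiescent-like and −0.46 (SE 0.13, adjusted p = 0.547) in activated-like cells (edgeR, Benjamini-Hochberg). It was −0.44 (SE 0.17, adjusted p = 0.581) in cycling-like, −0.30 (SE 0.15, adjusted p = 0.9993) in Myog-positive and −0.58 (SE 0.15, adjusted p = 0.324) in chaperone-led cells (edgeR). In Myog-positive cells the direction rested on how the class was drawn, since the fold change was 0.50 when the members were kept among the clustering genes and 0.36 when cells were assigned by markers alone. In endothelial-like cells the values of 1088, 1329.6, 1021 and 1039 CPM also put both α-cdKO samples below both controls, but within the 95% Poisson interval of control 1 (995 to 1186 CPM). The difference of the *Id3* fold change between quiescent-like and activated-like cells was 0.06 (SE 0.13, adjusted p = 0.997 from edgeR).

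Values that did not overlap between genotypes were common. They were counted here on the values of the edgeR step, scaled by TMM, and not on plain CPM. Among all genes tested, 19.8% were lower and 19.0% higher in both α-cdKO samples in all myogenic cells, 20.3% and 20.6% in quiescent-like, 18.3% and 18.2% in activated-like, 19.6% and 21.7% in cycling-like, 15.7% and 14.9% in Myog-positive and 19.8% and 20.2% in chaperone-led cells. Against this, 2 of 10 members were lower (*Id3* and *Bmp4*) and 1 was higher (*Smad1*) in all myogenic cells. In quiescent-like cells 3 were lower (*Id3*, *Id2* and *Smad6*) and 4 were higher (*Id4*, *Bmpr1a*, *Bmp4* and *Smad1*). In activated-like cells *Id3* and *Bmp4* were lower and *Bmpr1a*, *Smad1* and *Id1* higher, in cycling-like cells *Id3* was lower and *Id4*, *Bmp4* and *Bmpr2* higher, and in Myog-positive cells *Id3* was lower and *Smad7* and *Id1* higher. In chaperone-led cells *Id3*, *Bmp4* and *Smad6* were lower and *Smad1* higher. In plain CPM, however, *Id4*, *Bmpr1a* and *Smad1* overlapped between genotypes in quiescent-like cells, and *Bmpr1a* and *Id1* did so in activated-like cells.

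The *Id3* values moved with the kind of cell in α-cdKO 1, as the plot of *Id3* by sex-linked transcripts shows. In Y-linked myogenic cells *Id3* stood at 1007 and 963 CPM in the controls and 845 and 672 CPM in α-cdKO 1 and 2. In α-cdKO 1, the 4945 *Xist* cells held 562 CPM, below the 2840 Y-linked cells of the same library. Among Y-linked cells the genotypes still did not overlap, but the log2 fold change was −0.32 (SE 0.16, adjusted p = 0.99 from edgeR). In Y-linked activated-like cells *Id3* stood at 1075 and 987 CPM in the controls and 953 and 659 CPM in α-cdKO 1 and 2, against 694 CPM in the *Xist* cells of α-cdKO 1, and in quiescent-like cells at 905 and 778 CPM in the controls and 618 and 658 CPM in α-cdKO 1 and 2, against 592 CPM. With only 1 library of both kinds, sex and mouse cannot be told apart within it.

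**Figure D4:**
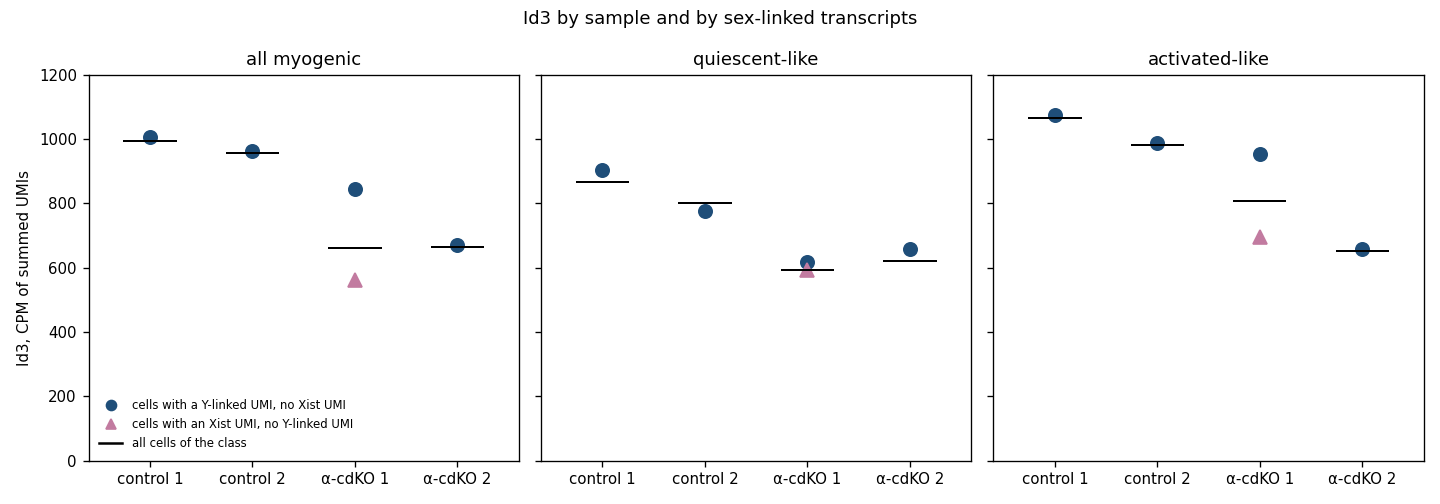
Id3 level (CPM of summed UMIs, axis from 0) in each sample for all cells of the class (line), Y-linked cells (circle) and Xist cells (triangle, α-cdKO 1 only). In activated-like cells the Y-linked cells of α-cdKO 1 sit at 953 CPM near the 987 CPM of control 2, while its Xist cells sit at 694 CPM.

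Immediate-early genes, which respond within minutes to stress and signals, had medians below 0 in the same comparison. Of 8, none passed edgeR's test, but 5 were lower without overlap in quiescent-like cells (*Fosb*, *Fos*, *Atf3*, *Jun* and *Junb*) and 4 in all myogenic cells, with a median log2 fold change of −0.39 and −0.42, against −0.01 for all genes in both. *Fos* in quiescent-like cells, as plain CPM, stood at 3907, 4364, 2405 and 3679 CPM in controls 1 and 2 and α-cdKO 1 and 2, lowest in α-cdKO 1. *Id3* and *Fos* were both lowest in α-cdKO 1 in quiescent-like cells, and the part of the immediate-early genes in the *Id3* difference was not tested. In activated-like cells 1 of the 8 immediate-early genes was lower without overlap (*Atf3*), and their median was −0.07. In cycling-like cells 4 were lower (*Fos*, *Egr1*, *Jun* and *Ier2*), with a median of −0.49. In Myog-positive cells 2 were lower (*Fos* and *Junb*, median −0.47), as were 2 in chaperone-led cells (*Fosb* and *Atf3*, median −0.42).

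*Bmp4* had fold changes of opposite sign in different classes, and none passed the test. Its values were higher in both α-cdKO samples in quiescent-like and cycling-like cells and lower in both in activated-like and chaperone-led cells, without overlap between the genotypes. In chaperone-led cells they were 119, 86.1, 75.1 and 79.9 CPM. The log2 fold change was 0.44 (SE 0.13, adjusted p = 0.395) in quiescent-like and 0.61 (SE 0.16, adjusted p = 0.418) in cycling-like cells, and −0.59 (SE 0.18, adjusted p = 0.567) in activated-like and −0.36 (SE 0.15, adjusted p = 0.592) in chaperone-led cells by edgeR. The difference between the quiescent-like and activated-like fold changes was 1.03 (SE 0.18, adjusted p = 0.0645 from edgeR with the sample as a block), which did not pass, where 3 of 13156 genes were called. Control 1 had the highest *Bmp4* level in activated-like cells, and without it the difference was 0.79 with an adjusted p of 0.000328, while without control 2 it was 1.26 with an adjusted p of 1.73e-11 (edgeR), in fits that leave 1 control, assumed to vary like the other samples. Without α-cdKO 1 it was 0.95 and without α-cdKO 2 it was 1.10, with adjusted p-values of 0.216 and 0.470 (edgeR). It was 0.96 with an adjusted p of 0.00013 without the filter on low counts, 0.75 with an adjusted p of 1 in Y-linked cells, and 0.19 with an adjusted p of 1 when cells were assigned by markers alone (edgeR).

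*Bmp4* also moved with the kind of cell in α-cdKO 1. Its *Xist* cells held 159 CPM in the quiescent-like and 53.2 CPM in the activated-like class, and its Y-linked cells 113 and 79.1 CPM, so the *Xist* cells were farther apart between classes. In α-cdKO 2 the Y-linked cells held 126 CPM in the quiescent-like and 66.1 CPM in the activated-like class. Without control 2, the *Bmp4* fold change in activated-like cells was −0.81 with an adjusted p of 0.0344, and without control 1 it was −0.34 with an adjusted p of 0.868 (edgeR). In quiescent cells assigned by markers alone it was −0.092, the other direction.

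*Id2* in quiescent-like cells was lower in both α-cdKO samples, with a fold change of −0.44 (SE 0.17, adjusted p = 0.519 from edgeR), and control 1 stood highest in that class, in activated-like cells and in all myogenic cells, where the values were 112, 72.8, 58.7 and 83.1 CPM. Without control 1 the *Id2* fold change in activated-like cells was 0.10, against −0.27 with all samples. Among Y-linked quiescent-like cells *Id2* overlapped, at 189 and 98.4 CPM in controls 1 and 2 and 111 and 118 CPM in α-cdKO 1 and 2. The *Xist* quiescent-like cells of α-cdKO 1 held 86.6 CPM. *Bmpr2* in cycling-like cells was higher in both, with a fold change of 0.62 (SE 0.23, adjusted p = 0.578 from edgeR), on 26 UMIs in control 1. As scaled by edgeR, *Smad1* was higher in both α-cdKO samples in all myogenic, quiescent-like, activated-like and chaperone-led cells. The fold changes were 0.20, 0.31, 0.22 and 0.30, with adjusted p-values of 0.636 to 0.820 (edgeR). In plain CPM, control 1 lay just above α-cdKO 2 in quiescent-like cells. Among Y-linked cells *Smad1* overlapped between genotypes in all myogenic, quiescent-like and activated-like cells. In Y-linked myogenic cells it stood at 74.3 and 67.6 CPM in controls 1 and 2 and 73.1 and 77.6 CPM in α-cdKO 1 and 2. The *Xist* myogenic cells of α-cdKO 1 held 90.7 CPM. *Id1*, with 91.2, 81.2, 94.5 and 101 CPM in all myogenic cells, had a fold change of 0.18 (SE 0.13, adjusted p = 0.773 from edgeR). Of the remaining members in all myogenic cells, *Smad6* had −0.33, *Bmp4* −0.30, *Bmpr2* −0.09, *Smad7* 0.04, *Id4* 0.05 and *Bmpr1a* 0.08. No gene of these lists passed the test in any class.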

How the data were processed

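Single cell RNA-sequencing counts of 4 libraries, each from 2 pooled mice, were analyzed. The deposited counts are raw UMI counts per gene and cell that the authors made with Cell Ranger (7.1.0 in the file headers) on GRCm38, and the submitters' processing notes also name Seurat 4.0.3. Cells were clustered in Seurat 5.3.0 (2000 variable genes, 30 principal components, an own implementation of Harmony, Louvain resolution 0.2). The variable genes excluded the members and pathway genes, but not the immediate-early and bHLH genes. Clusters were named where at least 3 markers of a list were 1.5-fold higher. Counts were summed per sample and class, and genotypes were compared with edgeR 4.0.16 (quasi-likelihood, filterByExpr, TMM, Benjamini-Hochberg over all genes tested, 0.05) and, as an alternative, DESeq2 1.42.0. Ratios between classes used CPM with 5 CPM added and genes with a mean of at least 5 CPM. Scrublet in scanpy 1.11.5 called 0 to 5 doublets per library, too few to have worked, so no call was used and removing the highest scores was an alternative. On simulated counts the edgeR step recovered 55% of genes changed by 1 on the log2 scale in all myogenic cells (14390 genes, with 39 unchanged genes called) and 17.5% in Myog-positive cells (9588 genes, with 11). The replicate numbers mark different mice in each genotype. Named genes were the members, up to 4 genes of highest level in each pathway list, the 5 genes most like *Id1*, *Id2* and *Id3* and the deleted genes, and other list genes are named because they were called, after their values were seen. Members and lists were chosen with earlier results of these data known.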

Additional observations from a re-analysis of the deposited data

Results flagged for a closer look

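*Bmp4* was singled out because its difference between genotypes had opposite directions in different classes, with both α-cdKO samples on one side of both controls in each. The log2 fold change was 0.61 in cycling-like and 0.44 in quiescent-like cells, and −0.59 in activated-like and −0.36 in chaperone-led cells. The difference between quiescent-like and activated-like cells was tested and did not pass (1.03, SE 0.18, adjusted p = 0.0645 from edgeR), and the other differences were not tested. With 2 samples per genotype no sample could be tested for standing apart from its group.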

How the results depend on the processing

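Of 826 fold changes of the members between genotypes under the alternatives, 64 had the other sign, and of 86 for *Id3*, 84 were below 0 and 2 were under an adjusted p of 0.05. Called values or directions turned for *Bmp4* in quiescent-like cells by marker gates (−0.092), *Id2* in activated-like cells without 1 sample (−0.57 without control 2 to 0.10 without control 1), *Id2* in cycling-like cells by gates (−0.31), *Id3* in Myog-positive cells with member genes kept for clustering (0.50) and by gates (0.36), and for the difference between states of *Id1* (0.11) and *Smad6* (0.14) by gates.

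The genes called between genotypes numbered 26 in all myogenic, 17 in quiescent-like, 19 in activated-like, 5 in cycling-like and 1 in Myog-positive cells. Without the low-count filter they were 13, 283, 210, 203 and 93, and with DESeq2 123, 26, 62, 18 and 13. The replicate numbers did not pair the samples (correlations of deviations from −0.232 to 0.190), and with the replicate block the counts were 21, 86, 27, 10 and 39, with no member called. With the crossed pairing, chosen after seeing the data, they were 207, 18, 19, 167 and 1. Leaving out 1 sample gave 0 to 65, 22 to 83, 29 to 95, 2 to 92 and 8 to 77, where the 0 came without control 2 with 1711 genes at an unadjusted p under 0.05. Without the cycling, Myog-positive and mature classes the myogenic count was 49. In quiescent-like cells it was 7 under 10% mitochondrial UMIs, 10 without the top doublet scores, 8 with member genes kept, 6 by gates and 4 in Y-linked cells. In cycling-like cells it was 3 with member genes kept and 8 by gates, and in Myog-positive cells 3 without Harmony and 2 by gates. For the difference between states it was 3, and 44 without the filter, 0 in Y-linked cells (397 at an unadjusted p under 0.05 by edgeR), 0 by gates (450) and 6 to 204 without 1 sample. The cause was not tested.

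Of the members called between states, quiescent-like against activated-like fell from 3 to 0 by gates. Cycling-like against activated-like had 2, and 1 by gates, thinned, and in Y-linked cells. Myog-positive against activated-like had 1, and 2 under 10% mitochondrial UMIs, 2 without Harmony, 4 with member genes kept, 3 by gates, 3 with TMM and 1 to 2 without 1 sample. Endothelial-like against myogenic had 4, and 2 by gates, thinned and in Y-linked cells and 1 with TMM. At 4000 UMIs per cell the share with an *Id1* UMI was 22.8% in quiescent-like, 19.1% in activated-like, 30.2% in cycling-like, 28.4% in Myog-positive and 60.9% in endothelial-like cells, and with an *Id3* UMI 57.5%, 68.9%, 68.2%, 47.0% and 83.6%. Depth limits *Smad6* throughout and each member in the 178 endothelial-like cells. Alternatives on Y-linked cells, chaperone-led cells and the merged classes were also chosen after seeing the data.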
